A study of Mus musculus with 6 samples.

Results

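Canonical direct targets of Notch were followed in the mouse T-cell leukaemia line Beko. They were the probe sets of Hes1 (ENSMUSG00000022528_at), Dtx1 (ENSMUSG00000029603_at), Nrarp (ENSMUSG00000078202_at), Notch3 (ENSMUSG00000038146_at), Hey1 (ENSMUSG00000040289_at), Heyl (ENSMUSG00000032744_at) and Hes5 (ENSMUSG00000048001_at), 7 of the 22414 genes in the table, chosen by name. The pairing of array ID and gene name was supplied with the choice of members, and the names of other array IDs were not analysed here, so markers of the T lineage or of other cells could not be checked. Expression was measured on 6 Affymetrix arrays, 1 for each condition, in 3 pairs of treated and vehicle cells. Parental Beko cells received 10 μM DAPT or its vehicle DMSO for 24 h. Beko cells infected with a DNMAML-ER fusion and selected, and Beko cells infected with a Notch1-ER fusion and selected, each received OHT, a tamoxifen metabolite, at 0.75 μg/mL, or ethanol as its vehicle, for 48 h. The sources disagree on the hydroxyl position of the metabolite. Each fusion line therefore carries its construct in the vehicle condition too, and the parental cells carry neither. Whether a line is a clone or a pool is not given in the sources used here.

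When a ligand engages a Notch receptor, γ-secretase cuts the receptor inside the membrane and frees its intracellular part. That part enters the nucleus, joins the DNA-binding protein RBPJ and recruits Mastermind, which turns RBPJ-bound genes on. In immature T cells and in T-cell leukaemia, Notch1 drives Hes1 and Dtx1 among many others. DAPT blocks γ-secretase. DNMAML is a truncated Mastermind that occupies the complex without activating it, and in both fusions an oestrogen receptor part makes activity depend on OHT. Less Notch output is thus the intended effect of DAPT and of DNMAML-ER with OHT, and more of it that of Notch1-ER with OHT.

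Promoters of the members that bear most on the results are printed first, because the nuclear complex reaches its targets through RBPJ, whose core site is TGGGAA. RefSeq promoter windows (build GRCm38.p6) were at hand for 4 of the 7 members, Dtx1, Nrarp, Notch3 and Hes5, and not for Hes1, Hey1 and Heyl. Each window printed is the 250 bases before the annotated start, 5′ to 3′ on the gene's strand, and capitals mark TGGGAA or its reverse complement TTCCCA. Nrarp is shown for its response to Notch1-ER, Dtx1 for its response to DAPT, and Hes5 for its small differences.
Nrarp, chr2:25180508-25180757, plus strand: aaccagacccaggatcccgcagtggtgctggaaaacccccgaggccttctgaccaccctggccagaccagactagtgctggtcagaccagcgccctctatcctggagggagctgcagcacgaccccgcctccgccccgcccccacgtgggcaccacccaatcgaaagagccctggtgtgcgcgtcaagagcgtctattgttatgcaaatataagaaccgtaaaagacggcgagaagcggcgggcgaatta
Dtx1, chr5:120711670-120711919, minus strand: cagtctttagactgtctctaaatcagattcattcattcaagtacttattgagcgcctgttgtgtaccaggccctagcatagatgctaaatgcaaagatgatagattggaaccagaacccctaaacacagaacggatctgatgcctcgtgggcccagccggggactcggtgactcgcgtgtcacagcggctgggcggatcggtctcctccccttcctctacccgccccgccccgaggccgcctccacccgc
Hes5, chr4:154960673-154960922, plus strand: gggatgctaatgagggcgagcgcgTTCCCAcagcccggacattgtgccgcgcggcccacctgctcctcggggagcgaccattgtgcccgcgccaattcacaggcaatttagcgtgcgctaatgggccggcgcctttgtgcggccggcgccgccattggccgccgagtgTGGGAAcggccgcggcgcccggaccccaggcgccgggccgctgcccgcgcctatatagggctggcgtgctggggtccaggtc
The Hes5 window held 2 matches, of which the first base lay 226 and 82 bases before the start, on opposite strands and 138 bases apart. Both were also matches to the longer form GTGGGAA, which contains the core. The Dtx1, Nrarp and Notch3 windows held 0 matches. Of 32851 RefSeq promoter windows of this length, 21.6% held the core on either strand, 5.42% held the longer form and 2.77% held the core at 2 or more places. A match of letters is a description and not a bound site, and sites outside the window were not searched.

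The values are the authors' log2 RMA levels. All 7 members lay at or above the floor of 5.54, which is the median over all genes of the mean level, on every array, and the lowest of their levels was 5.68. A difference is the treated minus the vehicle level on the log2 scale. Each condition has 1 array, so there is no replicate check on any such difference. Genes were counted by size, and each count of members stands beside the share of the 12150 genes at or above the floor that passed the same size. Levels of different probe sets are not comparable with each other and were compared only across arrays. Less of an RNA per cell and fewer cells that carry it cannot be told apart in such samples.

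Most members read lower with DAPT, all read lower with DNMAML-ER and OHT, and all read higher with Notch1-ER and OHT. Each reading sets 1 array against 1. With DAPT, 6 of 7 members were below their vehicle level, as were 47.3% of all genes, and 4 of them, Dtx1, Hes1, Hey1 and Nrarp, were at least 2-fold lower, against 0.576% of all genes. The same 6 were at least 1.5-fold lower, against 2.88%. With DNMAML-ER, 7 of 7 were below 0, as were 48.2% of all genes, and 2, Dtx1 and Hey1, at least 2-fold lower, against 0.28%. With Hes1 there were 3 at least 1.5-fold lower, against 1.32%. With Notch1-ER, 7 of 7 were above 0, as were 47.3% of all genes, and 1, Nrarp, at least 2-fold higher, against 0.379%. Nrarp and Dtx1, 2 of 7, were at least 1.5-fold higher, against 1.51%. In all 3 pairs together 6 of 7 members had the sign of intended Notch activity, against 13.7% of all genes, and Hes5 was the exception. With each array centred on its median, 6 of 7 members and 7.02% of all genes had that sign. The median member difference was -1.27 with DAPT, -0.47 with DNMAML-ER and 0.37 with Notch1-ER, where the medians of all genes were 0.02, 0.01 and -0.01.

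**Figure D1:**
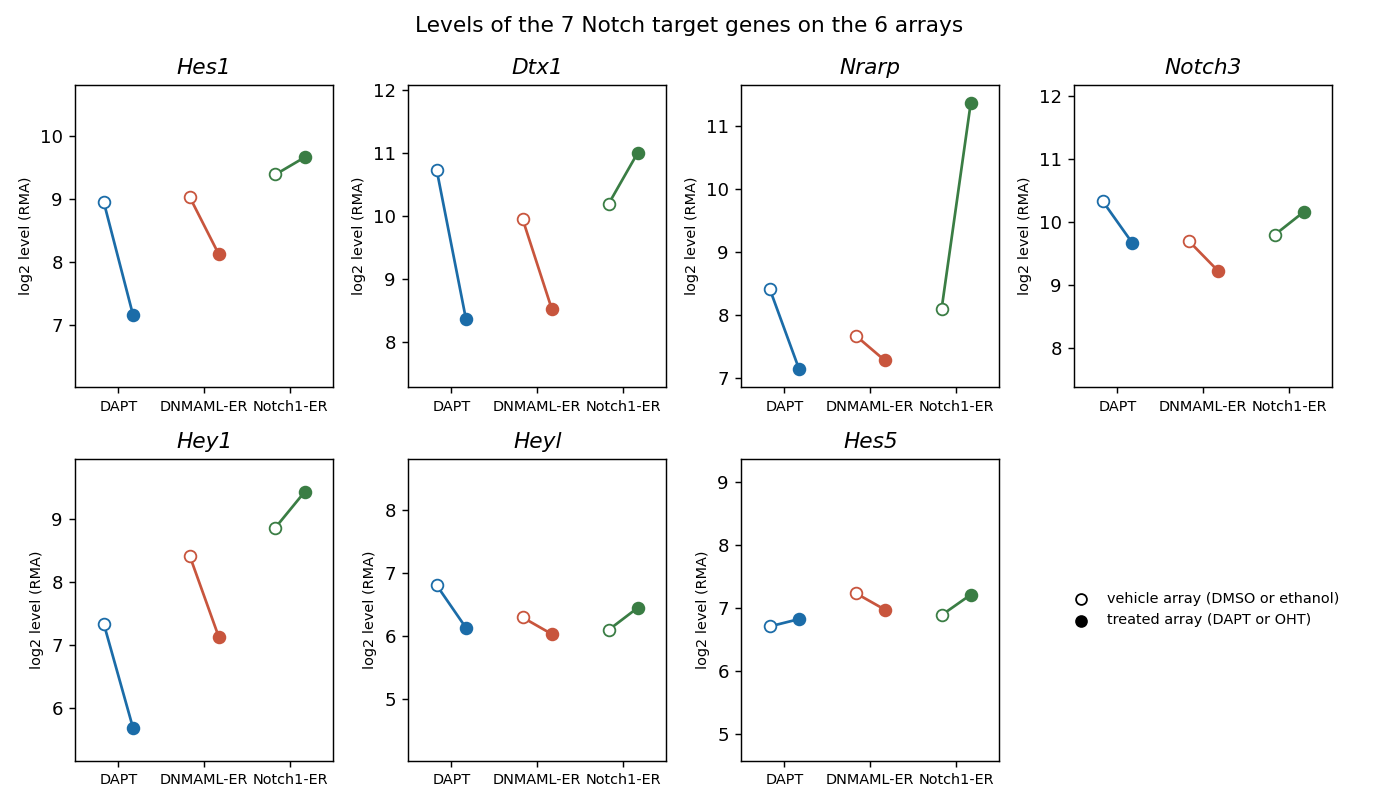
Log2 RMA level of each of the 7 genes on the 6 arrays, with vehicle arrays as open and treated arrays as filled circles and a line joining each pair; every panel spans the same number of log2 units and each point is 1 array. Nrarp goes from 8.09 to 11.36 in the Notch1-ER pair, and the Hes5 points stay between 6.71 and 7.24.

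Dtx1 encodes Deltex1, a ubiquitin ligase that binds the intracellular part of Notch. Dtx1 read 10.72 on the DMSO array and 8.36 on the DAPT array, 9.95 without and 8.52 with OHT in DNMAML-ER cells, and 10.19 without and 11.00 with OHT in Notch1-ER cells. The DAPT and DNMAML-ER OHT arrays, 8.36 and 8.52, were the low ones, and the other 4 lay at 9.95 or above. The difference was -2.36 with DAPT, a 5.15-fold lower level, and 3 genes of the 12150 were lower still. It was -1.43 with DNMAML-ER, 2.69-fold lower, with 9 genes lower still. With Notch1-ER it was 0.81, a 1.76-fold higher level, and 81 genes were higher. Dtx1 was the one member at least 1.5-fold in the direction of Notch activity in all 3 pairs, which 0.123% of all genes were. Ranked by the smallest of the 3 differences in that direction, it stood at place 5 of 12150.

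Nrarp encodes a small ankyrin-repeat protein that binds the Notch complex and limits its output, so it acts as negative feedback. Nrarp read 8.41 on the DMSO array and 7.14 on the DAPT array, 7.67 without and 7.28 with OHT in DNMAML-ER cells, and 8.09 without and 11.36 with OHT in Notch1-ER cells. A single array, Notch1-ER with OHT, stood far above the other 5, which lay within 7.14 to 8.41. The Notch1-ER difference of 3.28, a 9.69-fold higher level, was the largest increase of all 12150 genes in that pair. The DAPT difference was -1.27, a 2.41-fold lower level, with 41 genes lower still. The DNMAML-ER difference was -0.40, or 1.32-fold lower, and 511 genes were lower. The order of the members thus changed between perturbations. Nrarp was the fourth lowest of the 7 with DAPT and the fifth lowest with DNMAML-ER, and the highest with Notch1-ER.

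Hes1, Hey1, Heyl and Hes5 encode basic helix-loop-helix repressors, through which Notch signalling turns other genes off. Hes1 is the member of this family that thymocyte progenitors need. Hes1 read 8.95 on the DMSO array and 7.16 on the DAPT array, 9.03 without and 8.12 with OHT in DNMAML-ER cells, and 9.39 without and 9.66 with OHT in Notch1-ER cells. The 2 inhibitor arrays were the low ones and the Notch1-ER pair the high one. Hes1 was 3.46-fold lower with DAPT (-1.79) and 1.88-fold lower with DNMAML-ER (-0.91), with 15 and 42 genes lower still. With Notch1-ER it was 1.21-fold higher (0.27), the smallest Notch1-ER difference of the 7, and 1074 genes were higher. Its level with Notch1-ER and ethanol was 0.44 above that with DMSO.

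Hey1 is a Hes-related repressor best known from heart and vessels. Hey1 read 7.33 on the DMSO array and 5.68 on the DAPT array, 8.41 without and 7.12 with OHT in DNMAML-ER cells, and 8.86 without and 9.43 with OHT in Notch1-ER cells. The DAPT array was lowest, close to the floor, and both arrays of the Notch1-ER line were above the rest. Hey1 was 3.14-fold lower with DAPT (-1.65), with 19 genes lower still, and 2.45-fold lower with DNMAML-ER (-1.29), with 12 lower still. With Notch1-ER it was 1.48-fold higher (0.57), and 202 genes were higher. The DNMAML-ER OHT level of Hey1 differed by -0.21 from its DMSO level, while the ethanol level of that line was 1.08 above it.

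Heyl, a further Hey gene, read 6.81 on the DMSO array and 6.13 on the DAPT array, 6.30 without and 6.03 with OHT in DNMAML-ER cells, and 6.10 without and 6.45 with OHT in Notch1-ER cells. All 6 levels lay within 0.77 of each other. The DAPT difference was -0.67 (1.59-fold lower), the DNMAML-ER difference -0.27 (1.20-fold lower) and the Notch1-ER difference 0.35 (1.28-fold higher). Heyl was the only member of the 7 whose 3 arrays with less intended Notch activity all lay below the 3 with more. Of all genes, 3.76% did so. The margin was narrow, since the highest of the lower 3 levels was 6.13 with DAPT and the lowest of the other 3 was 6.30. The latter was the DNMAML-ER line with ethanol. This order also compares lines, since the Notch1-ER ethanol array, a vehicle array, counts among those with less. Its Heyl level differed by -0.71 from DMSO and by -0.20 from DNMAML-ER with ethanol.

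Hes5, a Notch effector of neural progenitors, was the member with the narrowest span, 0.53. Hes5 read 6.71 on the DMSO array and 6.83 on the DAPT array, 7.24 without and 6.98 with OHT in DNMAML-ER cells, and 6.89 without and 7.22 with OHT in Notch1-ER cells. Treated and vehicle arrays overlapped. Hes5 was 0.12 higher with DAPT, the one member difference of the 3 pairs that went against the intended direction, and 37.6% of all genes were as high or higher. The DNMAML-ER difference was -0.26 and the Notch1-ER difference 0.33. Its promoter window is the one printed above with 2 core matches.

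Notch3 encodes a Notch receptor that is itself a target of Notch signalling in T-lineage cells. Notch3 read 10.32 on the DMSO array and 9.67 on the DAPT array, 9.70 without and 9.22 with OHT in DNMAML-ER cells, and 9.79 without and 10.16 with OHT in Notch1-ER cells. The DMSO array was highest and the DNMAML-ER OHT array lowest. DAPT gave a difference of -0.65 (1.57-fold lower), DNMAML-ER one of -0.47 (1.39-fold lower) and Notch1-ER one of 0.37 (1.29-fold higher). Its 3 differences were the most even of the 7, with an SD of 0.15 once turned to the same direction, against 1.48 for Nrarp.

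**Figure D2:**
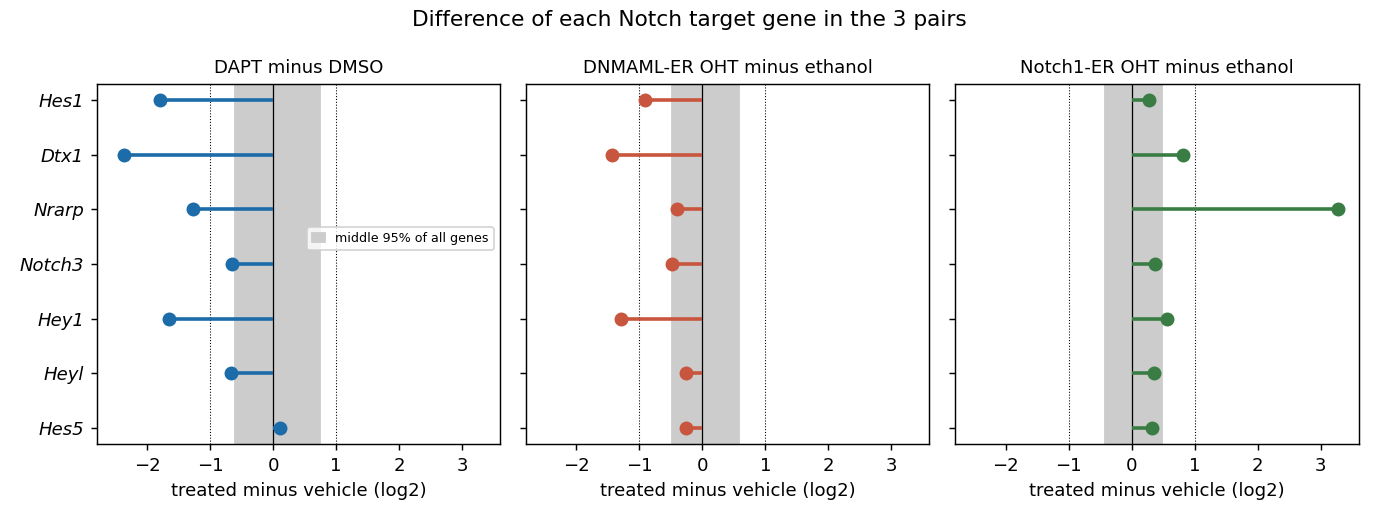
Treated minus vehicle level (log2) of each gene in the 3 pairs, 1 array against 1; the grey band holds the middle 95% of the 12150 genes and dotted lines mark 2-fold. With DAPT 6 of the 7 genes lie left of the band, with DNMAML-ER Dtx1, Hey1 and Hes1, and with Notch1-ER Nrarp, Dtx1 and Hey1 lie right of it.

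Levels were also ordered across all 6 arrays, which compares lines as well as treatments. In 5 of 7 members, Hes1, Dtx1, Nrarp, Notch3 and Hey1, both the DAPT and the DNMAML-ER OHT level lay below all of the other 4 levels, as 10.9% of all genes did. The margin ran from 0.03 for Notch3, whose 9.67 with DAPT was next to 9.70 in the DNMAML-ER line with ethanol, to 1.43 for Dtx1. The Notch1-ER OHT array was the highest of the 6 for Hes1, Dtx1, Nrarp and Hey1, 4 of 7 members, and for 14.2% of all genes. These counts were chosen after the values had been seen. OHT went with a lower level in DNMAML-ER cells and a higher one in Notch1-ER cells in 7 of 7 members, against 21.2% of all genes. The OHT differences of the 2 lines were at least 1 apart on the log2 scale, in that sense, for Nrarp, Dtx1, Hey1 and Hes1, 4 of 7, against 0.938% of all genes. The DNMAML-ER difference was smaller than the DAPT difference for each of the 6 members that were lower in both, and came to 31.2% of it for Nrarp, 39.4% for Heyl, 51.0% for Hes1, 60.5% for Dtx1, 72.4% for Notch3 and 78.3% for Hey1 on the log2 scale. The 2 pairs differ in agent, construct, vehicle and time, so these shares do not compare the strength of the inhibitors at matched times. Genes in general also differed less in the DNMAML-ER pair, where the SD over all genes was 0.28, against 0.36 with DAPT. The share of all genes with a smaller DNMAML-ER than DAPT difference was not counted, so the smaller size is not particular to the members.

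**Figure D3:**
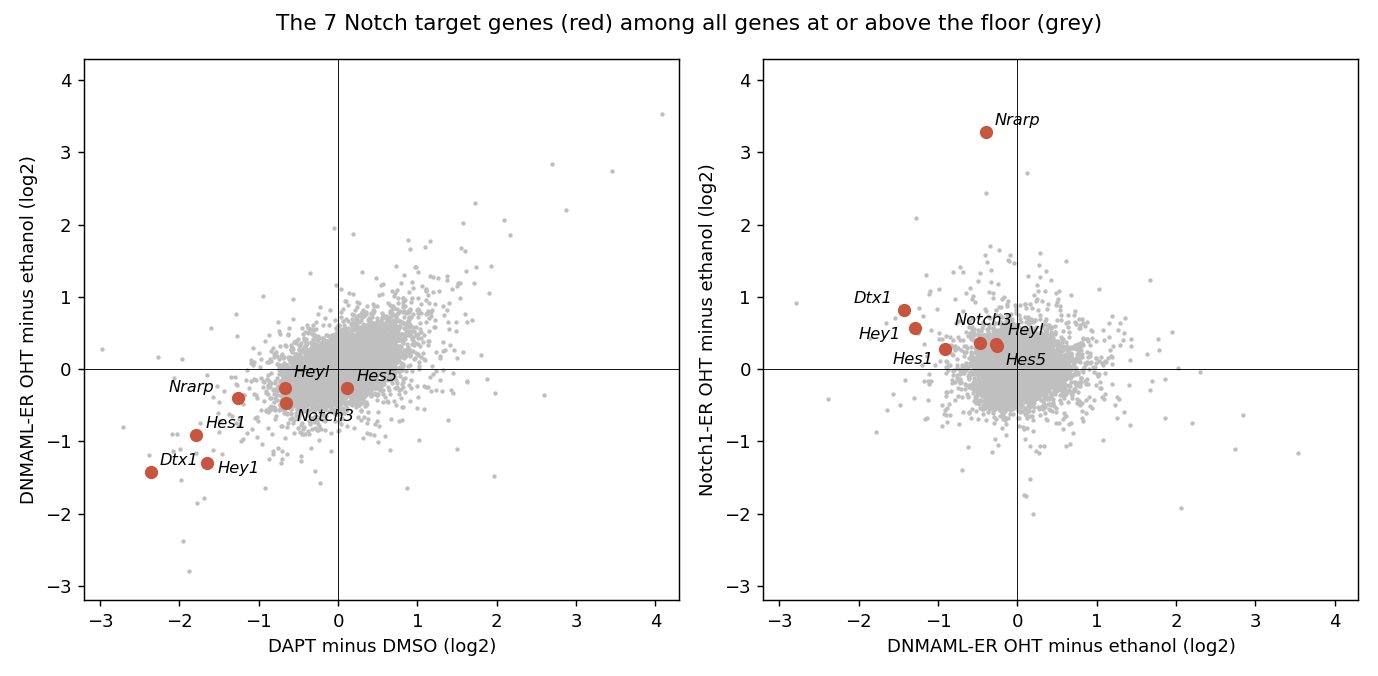
Log2 differences of the 7 genes (red) among the 12150 genes at or above the floor (grey), with DNMAML-ER against DAPT on the left and Notch1-ER against DNMAML-ER on the right; no array is shared between the axes of a panel. Dtx1, Hey1 and Hes1 lie at the lower left of the first panel, and Nrarp is the highest point of the second.

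A fit over all 3 pairs asked whether a gene moved with intended Notch activity in common. By limma, blocked on the pair, with 2 residual degrees of freedom and Benjamini-Hochberg adjustment over 12150 genes, 0 of 7 members and 0% of all genes passed an adjusted p of 0.05. At an unadjusted limma p of 0.05, 6 of 7 members were higher in the arm with more Notch activity, as were 3.17% of all genes. By limma, Dtx1 differed by 1.54 ± 0.26 (SE moderated over genes, 3 pairs; adjusted p = 0.21) and Hey1 by 1.17 ± 0.19 (adjusted p = 0.21). The limma difference was 0.50 ± 0.10 for Notch3 (adjusted p = 0.29), 0.99 ± 0.25 for Hes1 (adjusted p = 0.41) and 1.65 ± 0.46 for Nrarp (adjusted p = 0.48). Hes5, at 0.16 ± 0.12, had a limma adjusted p of 0.70. An exact permutation of the direction within 3 pairs cannot give a two-sided p below 0.25, so it was not used.

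The outcome differed without the Notch1-ER pair, but no member passed when either other pair was left out. Without the DAPT pair the lowest limma adjusted p of a member was 0.89 (Dtx1). Without the DNMAML-ER pair it was 0.21 (Nrarp). On only the pairs of DAPT and of DNMAML-ER, limma found 5 of 7 members lower with the inhibitors at an adjusted p of 0.05, and 1.79% of all genes, on 1 residual degree of freedom. More genes passed in the opposite direction, 4.62% being higher with the inhibitors, and none of the 7 members was among them. Dtx1 fell by 1.90 ± 0.18 (moderated SE, 2 pairs; limma adjusted p = 0.00085) and Hey1 by 1.47 ± 0.13 (limma adjusted p = 0.00059). Hes1 fell by 1.35 ± 0.17 (limma adjusted p = 0.0030), Notch3 by 0.56 ± 0.10 (0.014) and Nrarp by 0.83 ± 0.18 (0.028). Heyl, at -0.47 ± 0.15, and Hes5, at -0.07 ± 0.13, did not pass, with limma adjusted p values of 0.099 and 0.78. The 2 pairs differ in agent, construct, vehicle and time and are not replicates of 1 treatment. The moderated SE borrows variance from other genes, so these SE and p values do not measure the spread between the 2 pairs. That spread varied by member, with DAPT and DNMAML-ER differences of -1.27 and -0.40 for Nrarp but -0.65 and -0.47 for Notch3. In both pairs the arm with less Notch activity is also the treated arm, so Notch activity and another effect of treatment cannot be told apart in that fit.

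The 3 vehicle arrays showed how far the members differed between lines with no treatment meant to change Notch activity. Between the 2 ethanol arrays 0 of 7 members differed 2-fold, where 0.0658% of all genes were that much higher and 0.0412% lower in the Notch1-ER line. The SD of that difference over all genes was 0.19. Nrarp, 0.42 higher in the Notch1-ER line, and Hey1, 0.45 higher, lay above the middle 95% of genes, which ended at 0.37. Hes1 was 0.36 higher and Hes5 0.35 lower, both within it. Activity of the Notch1-ER fusion without OHT was not tested.

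Against the DMSO array of the parental cells, Hey1 was 2.12-fold higher with ethanol in the DNMAML-ER line (1.08) and 2.88-fold higher in the Notch1-ER line (1.53). It was the only member past 2-fold in either contrast, where 1% and 0.955% of all genes were higher by that much. At 1.5-fold in either direction, 4 of 7 members passed in the DNMAML-ER line and 2 of 7 in the Notch1-ER line, against 8.77% of all genes in each. Dtx1, Nrarp, Notch3 and Heyl were lower in both fusion lines than with DMSO. Both contrasts share the 1 DMSO array, so their signs are not independent, and the share of all genes lower in both was not counted. Dtx1 differed by -0.77 and -0.53, Nrarp by -0.74 and -0.32, Notch3 by -0.63 and -0.53, and Heyl by -0.51 and -0.71, the DNMAML-ER line being given first. The lines differ from the parental cells in construct, selection, vehicle and time, which cannot be told apart. Set against DMSO rather than against its own vehicle, Notch1-ER with OHT was 2.95 higher for Nrarp and 2.09 higher for Hey1, but 0.28 higher for Dtx1, and -0.17 and -0.36 for Notch3 and Heyl.

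**Figure D4:**
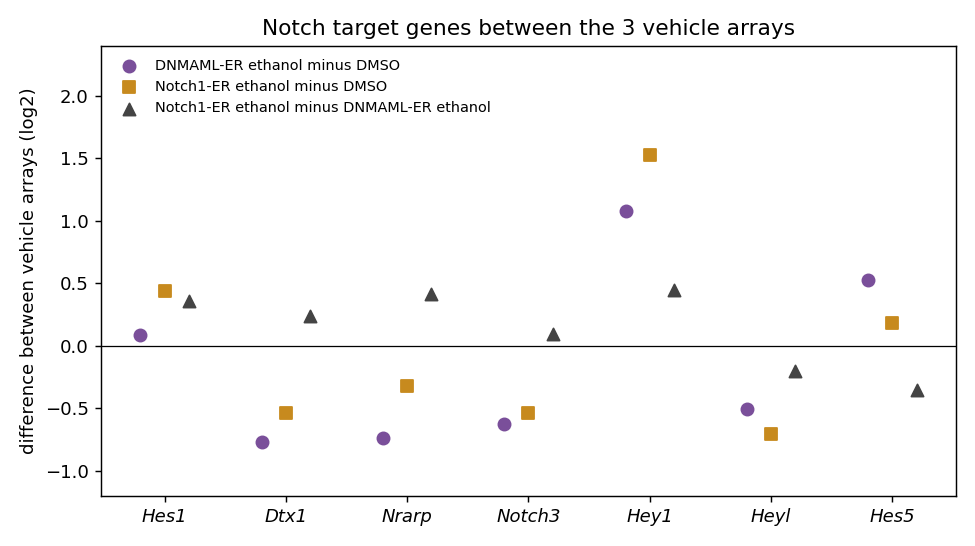
Log2 difference of each gene between pairs of vehicle arrays, 1 array against 1; circles and squares set the fusion lines in ethanol against the parental cells in DMSO and triangles set the 2 fusion lines against each other. Hey1 is the only gene above 1, at 1.08 and 1.53.

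Genes with a pattern like that of Hes1, Dtx1, Nrarp or Notch3 were sought by distance. Likeness was the Euclidean distance between the 3 differences of a gene and those of a member, over 3 pairs and 12143 other genes. Within a distance of 0.5 on the log2 scale lay 431 genes for Notch3, 6 for Hes1, 2 for Dtx1 and 0 for Nrarp, whose nearest gene was 0.93 away. A fixed distance holds fewer genes around a member with large differences, since fewer genes have large differences, so these counts follow size and do not show that a pattern is rare. ENSMUSG00000039115, nearest to Dtx1 at 0.26, had differences of -2.39, -1.19 and 0.73 with DAPT, DNMAML-ER and Notch1-ER. ENSMUSG00000021680, nearest to Hes1 at 0.24, had -2.03, -0.89 and 0.27, and its levels of 4.60 with DAPT and 4.95 with DNMAML-ER and OHT were under the floor. Among the members themselves, Notch3 and Heyl were nearest to each other, at 0.21, and Nrarp was at least 2.88 from every other.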

How the data were processed

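Values of 6 Affymetrix arrays, 1 per condition, were used. The deposited log2 levels came from RMA, run by the authors in a version that the submitters' processing notes do not state. RMA equalises the distributions of the arrays, so a change in total RNA would be absorbed. For the array model, annotation and genome build, the sources used here give nothing. The reference table gave an Ensembl ID in 0 of its rows, so none of the 22414 array IDs could be matched to it. Pathway lists and cell type markers were therefore not analysed here, and array coordinates are not printed.

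Groups came from the sample titles. Differences, counts and limma fits (lmFit, eBayes with trend, two-sided, limma 3.58.1, R 4.3.3) used the 12150 genes that reached the floor of 5.54 on at least 1 array. The limma fit was tested on simulated data with independent noise and no difference between lines, as a check of the code alone. Sequences are from RefSeq, GRCm38.p6. Array medians ran from 5.43 to 5.61; the number of arrays limits the precision. Members and lists were chosen with earlier results of these data known. Genes named are the 7 members and the nearest gene by distance to Hes1 and to Dtx1, the first members of the fixed naming rule. The rule allows at most 2 IDs in a direction where symbols are lacking. Alternatives were 3 renormalizations, other floors, another size, and limma fits without the block, the trend or a pair.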

Additional observations from a re-analysis of the deposited data

Results flagged for a closer look

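In all 7 members OHT went with a lower level in the DNMAML-ER line and a higher level in the Notch1-ER line, as in 21.2% of all genes. The difference was not tested, with 1 array for each line and condition. On the log2 scale the OHT difference in the Notch1-ER line exceeded that in the DNMAML-ER line by 3.67 for Nrarp, 2.24 for Dtx1, 1.86 for Hey1 and 1.19 for Hes1. It exceeded it by 0.84 for Notch3, 0.62 for Heyl and 0.59 for Hes5. An excess of 1 or more was found in 0.938% of all genes.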

How the results depend on the processing

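No paired analysis by replicate number was possible because each condition has 1 array. The 7 members' differences kept their sign in 63 of 63 values under a second quantile normalization, cyclic loess and median centring, with a largest shift of 0.13. Only the Hes5 difference with DAPT, 0.12, was smaller than that shift, so the other signs could not have changed. Median centring moved the median DAPT difference of all genes from 0.02 to 0.14. Member counts at 2-fold were the same with these and with the other floors. At 1.5-fold, 2 members passed with Notch1-ER and 1 in all 3 pairs. With the ethanol arrays of DNMAML-ER and of Notch1-ER cells set against DMSO, 4 and 2 passed, against 8.77% of all genes in each. At that size 350, 160 and 183 of all genes passed in the Notch direction with DAPT, DNMAML-ER and Notch1-ER, and 15 in all 3 pairs. Without the floor, 2-fold was passed by 120 genes with DAPT and 53 with DNMAML-ER, while 3821 showed the Notch sign in all 3 pairs, because more genes enter. That sign count was 1670 with the floor, 851 with median centring, and 2579, 2620 and 3856 without the DAPT, DNMAML-ER or Notch1-ER pair, which drops a criterion. The limma calls over all genes numbered 2 with quantile normalization, 1 without the floor, 1 without the trend and 778 without the Notch1-ER pair, and for these counts the cause was not tested. Members were among the limma calls only without the Notch1-ER pair.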
